A study of Mus musculus with 9 samples.

Results

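The genes described here are 10 genes of MHC class I antigen presentation: H2-K1, H2-D1, H2-T23, B2m, Nlrc5, Tap1, Tap2, Tapbp, Psmb8 and Psmb9. They were taken by symbol from a feature list of 32285 mouse genes, and all 10 were found. Their transcripts were counted in droplet-based 5′ single-cell RNA-seq libraries from EP ZFTA-RELA tumors of 5 mice (genotype NestinCreERT2;Fus1) and from brains of 4 control mice (NestinCreERT2;TdT), all aged 6 to 8 weeks, with 1 library per mouse. Both groups carry the tamoxifen-inducible Cre recombinase under the Nestin promoter, and in the tumor mice it switches on a ZFTA-RELA fusion gene, the driver of a childhood ependymoma, in radial glia of the embryo. A tumor library holds tumor cells, the brain cells around them and immune cells, while a control library holds dissociated brain.

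MHC class I molecules show fragments of a cell's own proteins to CD8+ T cells. The immunoproteasome (Psmb8, Psmb9) cuts the proteins, the TAP transporter (Tap1, Tap2) carries the peptides into the endoplasmic reticulum, tapasin (Tapbp) holds the empty class I molecule for loading, and a heavy chain (H2-K1, H2-D1 and the non-classical H2-T23, which encodes Qa-1) reaches the cell surface with the light chain β2-microglobulin (B2m). Interferons and the transactivator NLRC5 are known to raise these genes together, and in healthy brain neurons hold little class I while microglia and vessels hold more.

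In the GRCm38 annotation 8 of the 10 genes lie on chromosome 17, in the MHC. B2m is on chromosome 2 (122147686 to 122153083, plus strand) and Nlrc5 on chromosome 8 (94434356 to 94527272, plus strand). Tapbp (33915899 to 33929292, plus), H2-K1 (33996017 to 34000347, minus), Psmb9 (34181987 to 34187764, minus), Tap1 (34187553 to 34197225, plus), Psmb8 (34197721 to 34201454, plus) and Tap2 (34203527 to 34216321, plus) follow each other on chromosome 17, with H2-D1 (35262730 to 35267499, plus) and H2-T23 (36029773 to 36032855, minus) further along. All 10 are protein-coding. The heavy chain genes are related in sequence, so reads could be split between them or lost, and their counts are uncertain to that extent.

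The values are counts of unique molecular identifiers (UMIs), summed per mouse and cell class and given as CPM, the UMIs of a gene per 1000000 UMIs of that sum. Between 4025 and 6353 cells were kept in the control libraries and 1722 to 5125 in the tumor libraries, with medians of 2035 to 4116.5 and 2068 to 6512 UMIs per cell. Any 2 of the 8 libraries with a complete barcode list shared 1 to 9 cell barcodes, at most 0.29% of the smaller library. The lists of control mouse 4 lack 22 barcodes and 2 features of its matrix, so shared barcodes could not be counted for it. Cells were gated by marker genes. Microglia- and macrophage-gated cells numbered 156 to 204 per control mouse and 286 to 609 per tumor mouse, endothelial-gated cells 23 to 28 and 118 to 183, and astrocyte-gated cells 49 to 77 and 25 to 152. Among the 10 leading genes of these classes 6, 4 and 6 were markers of the class and 0 were markers of another. Fusion-allele cells numbered 64, 878, 94, 3613 and 1142 in tumor mice 1 to 5. They are cells of the tumor libraries with at least 1 UMI of the fusion, luciferase or IRES sequence. Cells in the immune, vascular, erythroid, neuron and oligodendrocyte gates were left out. Such a UMI was seen in 0 to 0.149% of control cells, where the added sequences of control mouse 4 were read by the place they have in the lists of the other libraries. T and NK gates took 19 control and 33 tumor cells in all, too few to compare.

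Free RNA, released by broken cells and captured in every droplet, differed between the groups and touches each comparison between them. Its estimated share of UMIs was 71.6 to 74.3% in microglia- and macrophage-gated cells of controls against 6.20 to 30.1% in tumors, 35.1 to 57.7% against 6.64 to 27.2% in endothelial-gated cells, and 45.2 to 62.8% against 9.92 to 25.6% in astrocyte-gated cells. In fusion-allele cells it was 5.05 to 17.8%. H2-K1 itself stood at 11.2 to 32.5 CPM in the free RNA of controls and 49.8 to 425 in that of tumors. Fits within classes were repeated with this RNA subtracted, and other values are as counted unless stated.

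The first comparison asked whether class I presentation genes were higher in tumor tissue than in control brain, over all kept cells. All 10 genes rose in the tumors. The increase ran from 2.38 on the log2 scale for H2-T23 to 4.16 for H2-K1, with a median of 3.17, while the median over all 17593 genes tested was 0.04. Of those genes 61.3% were called 32.1% higher and 29.2% lower, so a call alone does not set the 10 genes apart. Every tumor mouse exceeded every control mouse for all 10, as for 25.2% of genes with a mean of at least 1 CPM. Here more cells of a type and more RNA per cell cannot be told apart.

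H2-K1, a classical heavy chain, stood at 22.3, 30.6, 18.1 and 15.6 CPM in control mice 1 to 4 and at 283, 382, 386, 439.9 and 106 in tumor mice 1 to 5 (log2 difference 4.16 ± 0.48 SE, edgeR quasi-likelihood adjusted p = 0.000229). Tumor mouse 5 was lowest and still above every control. B2m, the light chain that all these heavy chains share, stood at 99.9, 121, 77.8 and 76.9 in controls and at 677, 858, 963, 531 and 314 in tumors (3.07 ± 0.35, adjusted p = 0.000225). Tumor mouse 5 was again the lowest tumor. Nlrc5, the transactivator, was rare, at 0.364, 0.837, 0.253 and 0.322 in controls and at 3.05, 2.49, 3.12, 4.33 and 2.87 in tumors, without overlap. It passed the filter on low counts through the tumor mice, where it is high, so the fit without that filter is given (3.08, edgeR adjusted p = 0.000592).

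Tap1, one of the TAP subunits, stood at 1.75, 2.60, 2.53 and 1.70 CPM in controls and at 15.1, 22.8, 16.9, 21.4 and 8.28 in tumors (3.26 ± 0.39, adjusted p = 0.000261). Psmb8, the immunoproteasome subunit that takes the place of Psmb5, stood at 6.40, 9.67, 7.07 and 6.40 in controls and at 62.2, 139.9, 100.02, 120.5 and 47.6 in tumors (3.97 ± 0.43, adjusted p = 0.000188). For both, tumor mouse 5 was the lowest of the tumors and several times the highest control. The other members rose by 4.03 (H2-D1), 3.72 (Psmb9), 2.91 (Tap2) and 2.58 (Tapbp).

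**Figure D1:**
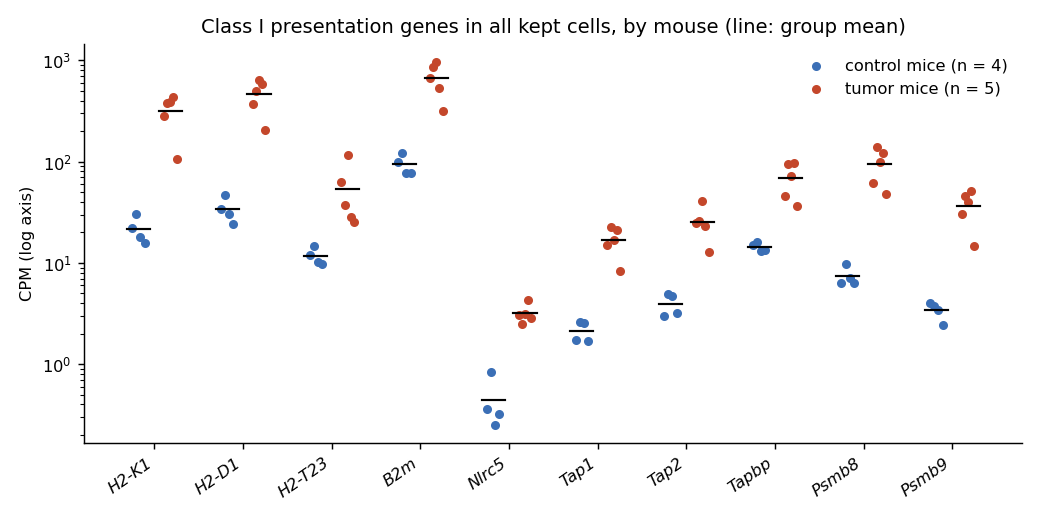
CPM (log axis) of the 10 genes in all kept cells, 1 point per mouse for 4 control and 5 tumor mice, with a line at each group mean. No gene's groups overlap; H2-K1 reached 30.6 in the highest control and 106 in the lowest tumor.

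A small part of the tumor cells held much of this RNA. Microglia- and macrophage-gated cells made up 7.57 to 19.9% of tumor cells and held 27.0 to 69.6% of the B2m UMIs, 20.1 to 55.4% of the H2-K1 UMIs and 36.1 to 64.0% of the H2-T23 UMIs. In controls the same gate held 3.15 to 4.07% of cells and 21.4 to 27.7% of B2m UMIs. Fusion-allele cells of tumor mouse 4 made up 70.5% of its cells and held 53.7% of its B2m and 77.0% of its Tapbp UMIs, while those of tumor mouse 3 made up 5.46% and held 0.958% and 4.73%. Shares of cells are not shares of all UMIs. The fusion-allele cells held 28231401 of the 37671311 UMIs of tumor mouse 4 and 701879 of the 7048357 of tumor mouse 3. The summed level of the 12 microglia and macrophage markers was 5.57 to 6.78 UMIs per 10000 in controls and 33.0 to 122 in tumors, with all 12 markers detected in every library. How far this difference in makeup carries the rise over all cells was not tested.

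The promoters of genes that moved together were read for known class I motifs. The RefSeq table used here (GRCm38.p6, 250 bases before to 50 after each start) held 8 of the 10 genes, all but Nlrc5 and Tap2. Shown are the 250 bases before the start of H2-K1 (chr17:34000348-34000597, minus strand), H2-D1 (chr17:35262844-35263093, plus strand) and B2m (chr2:122147437-122147686, plus strand), which share one spaced arrangement of motifs, and of H2-T23 (chr17:36032702-36032951, minus strand), in which that arrangement was not found. Capitals mark matches, on either strand, to an interferon-stimulated response element (TTTCNNTTC, or a longer form with 1 more base), a kappa-B site, the core of the X2 box (TGACG) and the Y box (ATTGG).
H2-K1: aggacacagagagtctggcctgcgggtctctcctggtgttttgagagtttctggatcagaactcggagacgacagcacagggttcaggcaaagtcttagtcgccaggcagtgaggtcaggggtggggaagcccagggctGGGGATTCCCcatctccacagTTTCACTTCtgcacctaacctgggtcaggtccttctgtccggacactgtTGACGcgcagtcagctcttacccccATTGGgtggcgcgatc
H2-D1: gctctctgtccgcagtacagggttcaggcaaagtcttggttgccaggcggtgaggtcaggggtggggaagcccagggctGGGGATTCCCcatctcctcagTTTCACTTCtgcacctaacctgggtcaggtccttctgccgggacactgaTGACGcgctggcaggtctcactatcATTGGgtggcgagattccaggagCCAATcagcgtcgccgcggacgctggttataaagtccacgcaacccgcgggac
B2m: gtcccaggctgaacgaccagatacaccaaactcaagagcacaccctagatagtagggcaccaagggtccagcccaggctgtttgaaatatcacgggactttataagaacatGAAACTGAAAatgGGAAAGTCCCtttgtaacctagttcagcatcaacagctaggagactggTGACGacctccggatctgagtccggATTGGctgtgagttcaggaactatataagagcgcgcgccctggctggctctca
H2-T23: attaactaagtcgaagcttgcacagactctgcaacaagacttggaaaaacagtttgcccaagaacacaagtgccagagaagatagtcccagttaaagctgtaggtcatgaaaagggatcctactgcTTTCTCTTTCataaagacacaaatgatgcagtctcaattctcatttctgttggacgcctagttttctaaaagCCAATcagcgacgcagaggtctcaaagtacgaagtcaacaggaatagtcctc

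In the 300-base windows, H2-K1, H2-D1 and B2m each held the X2 core followed 20 bases later by the Y box, an arrangement found in 26 of 27025 promoters (0.096%), H2-M3 among them. The letters of the X2 core alone were found in 5 of the 8 windows (H2-K1, H2-D1, B2m, Tap1, Psmb9) and in 21.0% of all promoters, and the Y box in 7 of 8 and 37.9%. A kappa-B match was found in H2-K1, H2-D1 and B2m (4.71% of all promoters), the shorter response element in H2-K1 and H2-D1 (7.56%) and the longer in H2-T23 and B2m (3.49%). H2-K1 and H2-D1, aligned at the X2 core, were identical at 169 of 209 bases (80.9%). In the RefSeq table Tap1 and Psmb9 are transcribed away from each other from starts 226 bases apart, so their windows share 275 bases. The gene coordinates given above differ from these starts: there Psmb9 ends at 34187764 and Tap1 begins at 34187553, so the genes overlap. The Tapbp window (chr17:33919228-33919527) lies inside the gene as given above. A match is a description of letters and not a bound site.

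**Figure D2:**
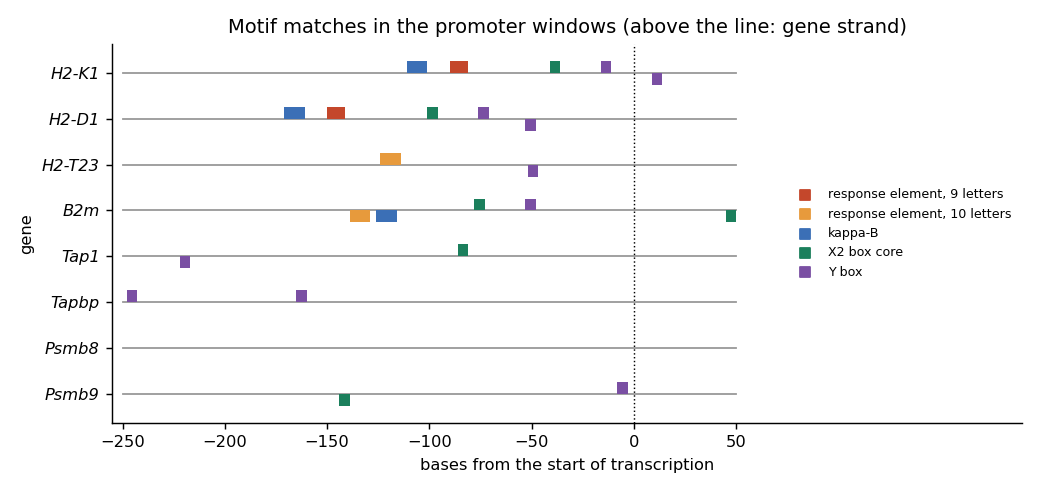
Motif matches in the promoter windows of the 8 members with a sequence, by distance in bases from the gene's start (0, dotted line), with matches on the gene's own strand above each line and on the other strand below it. H2-K1, H2-D1 and B2m carry the X2 core and the Y box 20 bases apart; Psmb8 has no match.

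The next comparison asked whether the genes were higher in tumors within microglia- and macrophage-gated cells, the resident phagocytes of the brain and their blood-derived relatives. All 9 genes that passed the filter on low counts rose, by 1.08 to 3.14 on the log2 scale (median 2.18, against -0.01 over the 9437 genes tested, of which 47.2% were called and 22.2% called higher). Nlrc5 did not pass the filter, at 0, 4.90, 0 and 3.02 CPM in control mice 1 to 4 and 6.60, 4.73, 3.68, 9.42 and 5.02 in tumor mice 1 to 5, which overlap. In 8 of the 10 genes every tumor mouse exceeded every control mouse, against 7.44% of genes.

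H2-K1 stood at 219.99, 259.7, 130.2 and 147 CPM in these cells of control mice 1 to 4 and at 799, 809, 792, 1361 and 469 in those of tumor mice 1 to 5 (2.62 ± 0.36, adjusted p = 0.000204). H2-D1, the other classical heavy chain, stood at 291, 325, 169 and 135 in controls and at 1331, 1255, 1390.5, 2311 and 1111 in tumors (3.14 ± 0.36, adjusted p = 8.18e-05). Tumor mouse 4 was highest for both. H2-T23, a ligand of the NKG2A receptor of NK and T cells, stood at 48.0, 57.6, 33.4 and 36.3 in controls and at 246, 128, 238, 159 and 156 in tumors (2.47 ± 0.24, adjusted p = 4.60e-05). Here tumor mouse 4 was in the middle.

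B2m stood at 743, 881, 554 and 691 CPM in controls and at 2807, 2472, 2486, 2212 and 2133 in tumors (2.18 ± 0.20, adjusted p = 3.96e-05). The 5 tumor mice lay within 2133 and 2807, above every control. Psmb8 stood at 48.0, 58.8, 65.1 and 66.5 in controls and at 224, 283, 228, 516 and 242 in tumors (2.78 ± 0.34, adjusted p = 0.000111), with tumor mouse 4 far above the others. Tapbp overlapped, at 73.3, 66.2, 49.3 and 74.1 in controls and at 112, 104, 120.4, 116 and 59.5 in tumors (1.08 ± 0.25, adjusted p = 0.00365). Tumor mouse 5 lay among the controls. Psmb9 rose by 2.17, Tap2 by 2.06 and Tap1 by 1.48, without overlap. Tap2, at 7.59 to 18.4 CPM in controls, passed the filter only with the tumor mice, so its rise is a description.

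Microglia and macrophage markers in the same cells summed to 113 to 122 UMIs per 10000 in controls and 356 to 432 in tumors, and the 10 neuron markers, carried by free RNA, to 64.8 to 73.1 and 1.13 to 15.9. With free RNA subtracted 7 of the 9 genes remained called, where 24% of 6937 genes were called higher, and every tumor mouse exceeded every control mouse for 2 of the 10 (H2-D1 and Psmb8) in place of 8, against 6.93% of genes. H2-K1 then stood at 610.1, 781, 370.3 and 406 in controls and at 1096, 913, 833, 1517 and 586 in tumors, and the groups overlapped (log2 difference 1.63). B2m differed by 1.25, Tap1 by 0.41 (adjusted p = 0.418) and Tapbp by 0.12 (adjusted p = 0.730). Tapbp then stood at 196, 175, 127 and 185 in controls and at 146, 106, 125, 118 and 67.9 in tumors, so that the control values were mostly the higher before TMM scaling. The median of all genes moved to 0.11 under this subtraction, and to -0.66 when library sizes also replaced the TMM scaling. Relative to library size 4 genes were called higher, H2-D1 (1.34), Psmb8 (0.98), H2-T23 (0.89) and H2-K1 (0.80), while Tap1 (-0.40) and Tapbp (-0.67) turned to lower values that did not pass (adjusted p = 0.405 and 0.0602). Library-size scaling, alone or with the subtraction, was added after the data were seen. Genes called in all ranged from 2740 to 5686 over the alternatives.

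**Figure D3:**
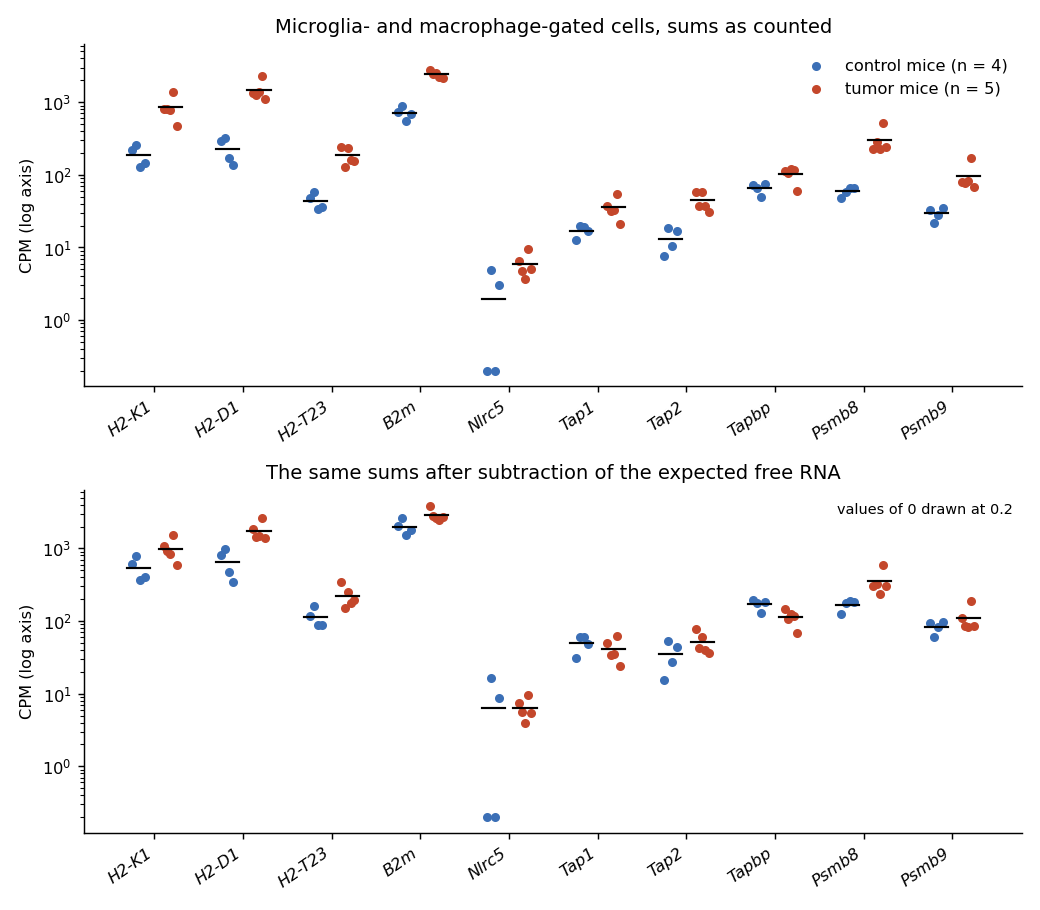
CPM (log axis) of the 10 genes in microglia- and macrophage-gated cells as counted and with free RNA subtracted, 1 point per mouse, with a line at each group mean and values of 0 drawn at the bottom. As counted, B2m reached 881 in the highest control and 2133 in the lowest tumor; after subtraction the values are 2600 and 2479.

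Endothelial-gated cells, which line the vessels, were compared in the same way. H2-K1 and H2-D1 were called higher. Tap1 passed the filter on low counts only through the tumor mice, where it is high, so its call is not read and its UMIs are given instead. The median difference of the 8 other genes that passed was 0.80, against 0.03 over 6763 genes, of which 23.1% were called and 11.4% called higher. Tap2, among these 8 and at 14.7 to 47.0 CPM in controls, also passed only with the tumor mice. Its value and its part in the median are descriptions. Every tumor exceeded every control for 2 of the 10 genes, against 7.08% of genes, and after subtraction of free RNA for 0 of the 10, against 6.44%. H2-K1 stood at 250.4, 329, 229 and 204 CPM in controls and at 1036, 238, 823, 1037 and 302 in tumors (1.53 ± 0.45, adjusted p = 0.0290). Tumor mice 1, 3 and 4 were high, and tumor mice 2 and 5 lay within the control range. H2-D1 stood at 309, 460.3, 517 and 262 in controls and at 1345, 589, 1284, 1533 and 546 in tumors (1.53 ± 0.36, adjusted p = 0.00895), with tumor mice 2 and 5 again lowest.

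Tap1 had 0, 0, 0 and 2 UMIs in the endothelial-gated cells of control mice 1 to 4, and 19, 18, 32, 52 and 9 UMIs in those of tumor mice 1 to 5. Over the group sums its level was 8.49 times as high in tumors (95% counting interval 2.30 to 70.9). B2m did not pass, at 663, 742, 584 and 444 in controls and at 1787, 576, 1216, 1041 and 508 in tumors (0.85 ± 0.35, 95% interval 0.17 to 1.53, adjusted p = 0.0925). The 5 other tested genes did not pass either, with differences from 0.43 (Tapbp) to 1.28 (Tap2). Nlrc5, below the filter, had 2 UMIs in the controls and 16 in the tumors, a ratio of levels of 1.05 (95% counting interval 0.246 to 9.37).

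The calls in these few cells turned on single mice. H2-K1 lost its call without control mouse 1, 3 or 4 (adjusted p = 0.0666, 0.0684 and 0.0859), while B2m and Psmb8 gained one without tumor mouse 5. Tap2 gained one without tumor mouse 2, which is not read, since Tap2 passed the filter only with the tumor mice. Subtraction of free RNA left 8 genes that passed the filter, Tap1 not among them. H2-K1 then differed by 1.07 (adjusted p = 0.0914), and 1 of the 8 was called (H2-D1, 1.09), where 13.5% of 5443 genes were called higher. With library-size scaling as well 0 were called. Without the filter on low counts 7 genes were called, and with limma voom 1. Genes called in all ranged from 919 to 2614 over the alternatives. The summed level of the 12 microglia and macrophage markers in these cells was 1.92 to 4.13 UMIs per 10000 in controls (9 to 10 detected) and 4.04 to 7.89 in tumors (11 to 12 detected), and its part in the result was not tested.

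Whether the tumor effect itself differed between endothelial- and microglia- and macrophage-gated cells was tested as an interaction. It was smaller in endothelial-gated cells for 4 of 9 genes, where 3.36% of 10303 genes were called and 1.11% called in this direction. The differences were -1.59 for H2-D1 (adjusted p = 0.0165), -1.85 for H2-T23 (adjusted p = 0.0214), -1.35 for B2m (adjusted p = 0.0278) and -1.95 for Psmb8 (adjusted p = 0.00813). Once free RNA was subtracted the differences were -1.17 for H2-D1, -1.53 for H2-T23, -0.94 for B2m and -1.64 for Psmb8, of which 0 passed (adjusted p = 0.136, 0.129, 0.197 and 0.0758), and without the mouse as a block 0 passed. The count was 2 without control mouse 1 or control mouse 2, 1 without control mouse 3 or control mouse 4, and 6 without tumor mouse 1. Genes called in all ranged from 167 to 597 over the alternatives.

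Astrocyte-gated cells were compared next. Only 4 genes passed the filter: H2-K1, H2-D1, B2m and Tapbp. H2-K1, H2-D1 and Tapbp passed it through the tumor mice, where they are high, so their calls and fitted values are not read. B2m was called higher. Of 4276 genes 34.0% were called and 17.2% called higher. The filter passes a gene that is high in 1 group, so the 4 do not stand for all 10. H2-K1 stood at 49.995, 48.5, 16.8 and 27.2 CPM in controls and at 239, 242, 114, 659 and 171 in tumors. B2m stood at 49.995, 87.4, 77.2 and 131 in controls and at 401, 401, 205, 703 and 254 in tumors (2.14 ± 0.36, adjusted p = 0.000259). Tumor mouse 4, with 25 cells, was highest for both, and no tumor mouse overlapped the controls as counted. After subtraction of free RNA B2m overlapped, at 169 in control mouse 4 and 168 in tumor mouse 3.

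Tapbp stood at 4.53 to 29.997 CPM in astrocyte-gated control cells and at 54.1 to 105 in those of the tumors. H2-D1 stood at 6.72 to 31.7 and 82.5 to 599 in the same order. Over all 10 genes 7 had every tumor above every control as counted, against 5.88% of genes, and 4 after subtraction of free RNA, against 4.97%. Tap1 had 0 of 824688 UMIs in the control cells, which allows a level of up to 3.64 CPM, and 18 UMIs in the tumor cells. Over the group sums the tumor level was 3.42 times that upper limit, with no counting error taken on the 18 UMIs. Psmb9 had 3 and 23 UMIs, a ratio of levels of 4.36 (95% counting interval 1.32 to 22.7). Psmb8, at 0, 14.6, 3.36 and 4.53 CPM in controls and 36.98, 33.4, 13.3, 105 and 46.96 in tumors, overlapped through tumor mouse 3, and H2-T23 and Nlrc5 overlapped too. Microglia and macrophage markers stood at 2.05 to 2.77 UMIs per 10000 in astrocyte-gated control cells and 2.11 to 8.61 in tumor cells, with 10 to 12 of 12 markers detected, and their part in the result was not tested. Subtraction of free RNA left 17 UMIs of H2-K1, 5 of H2-D1 and 29 of B2m in the control cells of all 4 mice, and 285, 214 and 383 in the tumor cells. These 3 genes then passed the filter through the tumor mice, so their fitted values are not read.

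Across the classes of the tumor mice, microglia- and macrophage-gated cells had the highest mean level for 7 of 10 genes, endothelial-gated cells for Tap1 and Tap2, and astrocyte-gated cells for Nlrc5. B2m was at 2422 ± 266 CPM (SD, n = 5) in microglia- and macrophage-gated cells, 1026 ± 521 in endothelial-, 478 ± 276 (n = 4) in mural-, 393 ± 194 in astrocyte- and 259 ± 173 in fusion-allele cells. It was lowest in neuron- (111 ± 31.6, n = 4) and neuroblast-gated cells (89.0 ± 71.6, n = 3). The first step held in 5 of 5 mice, while from mural- to oligodendrocyte-gated cells neighbouring means differed by less than their SD. H2-K1 in microglia- and macrophage-gated cells exceeded endothelial-gated cells in 3 of 5 mice only, and Tap1 in endothelial-gated cells exceeded them in 2 of 5. Tap2 in endothelial-gated cells exceeded mural-gated cells in 2 of 4. Nlrc5 in astrocyte-gated cells, at 8.44 ± 8.64 CPM from 9 UMIs in all, exceeded microglia- and macrophage-gated cells in 3 of 5. These first places are not settled.

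In control brain, as counted, endothelial-gated cells were first for 8 of 10 genes and microglia- and macrophage-gated cells for B2m and Tap1. H2-K1 was at 253 ± 54.0 CPM (n = 4) in endothelial-gated and 189 ± 61.1 in microglia- and macrophage-gated control cells, higher in the first in 4 of 4 mice. Once free RNA was subtracted the order of H2-K1 turned, at 458 in endothelial-gated and 542 in microglia- and macrophage-gated cells, higher in the second in 4 of 4 mice. Of these 2 classes endothelial-gated cells then had the higher mean for 6 of 10 genes and microglia- and macrophage-gated cells for 4, Tapbp among them, so the order in control brain is not settled. Neuron-gated control cells held 10.2 ± 2.13, the lowest of 7 classes. Neurons of the tumor mice held 39.7, 88.5, 31.3 and 17.5 in mice 1, 2, 3 and 5, above every control mouse (8.31 to 12.2), beside free RNA of the same libraries at 49.8 to 227 in these 4 mice.

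**Figure D4:**
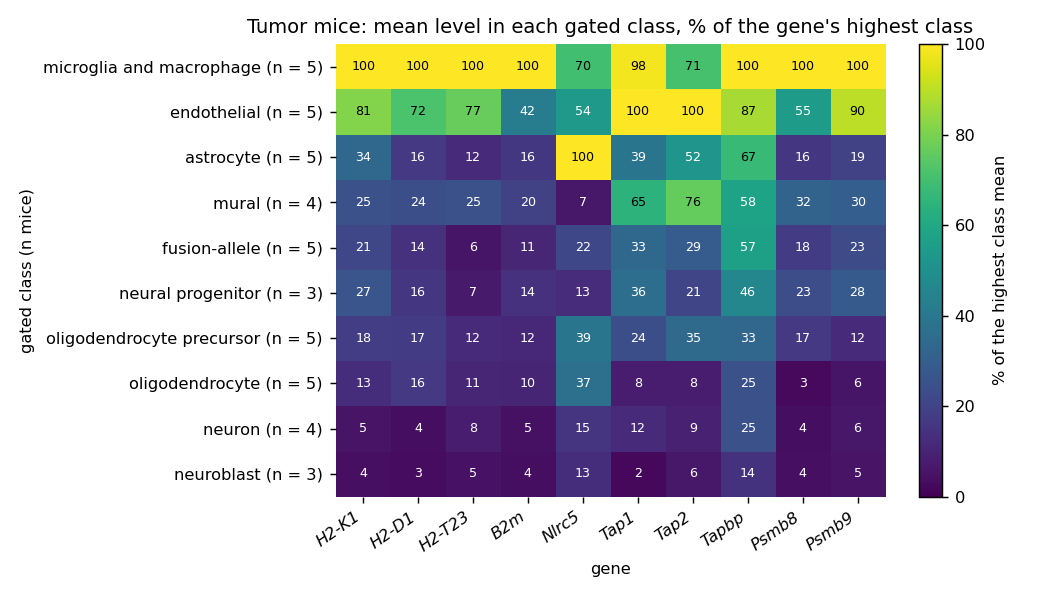
Mean level of each gene in each gated class of the tumor mice, as percent of that gene's highest class, with the number of mice per class. Microglia- and macrophage-gated cells are the highest class for 7 of 10 genes, and fusion-allele cells rank between 5 and 9 of 10 classes.

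Fusion-allele cells, defined by at least 1 UMI of the tumor's own driver allele, were set against other cells of the same tumors. Against microglia- and macrophage-gated cells all 9 tested genes were lower, by 1.22 to 4.36 on the log2 scale, where 50.2% of 11325 genes were called and 24.1% called lower. Against endothelial-gated cells 8 of 9 were lower, where 40.2% of 8612 genes were called and 20.9% called lower. H2-T23, Tap1, Tap2, Psmb8 and Psmb9 passed the filter on low counts only with the endothelial-gated cells, where they are high. That count of 8 is therefore a description. Against astrocyte-gated cells 3 of 6 were lower, where 38.3% of 6347 genes were called and 19.2% called lower. Tap2, among these 3, passed the filter only with the astrocyte-gated cells. The 3 comparisons share the fusion-allele cells and are not independent. Microglia- and macrophage-gated cells of the tumors included 0.920 to 22.4% with a UMI of the added sequences. In endothelial-gated cells the share was 0 to 21.0% and in oligodendrocyte-gated cells 0 to 34.5%, highest in tumor mouse 4. Of the astrocyte gate 1.40 to 39.0% had such a UMI and were counted as fusion-allele cells. So 1 UMI alone does not mark a tumor cell with certainty.

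H2-K1 in fusion-allele cells stood at 156, 295, 35.6, 355 and 56.5 CPM in tumor mice 1 to 5. Tumor mice 2 and 4 were high and tumor mice 3 and 5 low. The log2 difference was -2.97 ± 0.38 against microglia- and macrophage-gated cells (adjusted p = 0.000290), -2.28 ± 0.61 against endothelial-gated cells (adjusted p = 0.0187) and -0.96 ± 0.26 against astrocyte-gated cells (adjusted p = 0.00948).

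B2m in fusion-allele cells stood at 209, 494, 92.6, 381 and 118, again highest in tumor mice 2 and 4. It was lower by 3.88 than in microglia- and macrophage-gated cells, by 2.24 than in endothelial-gated and by 0.83 than in astrocyte-gated cells (adjusted p = 3.90e-05, 0.00780 and 0.00726). The free RNA of the same libraries held B2m at 259, 446, 536, 616 and 194, above the fusion-allele cells in 4 of 5 tumors. With free RNA subtracted B2m in fusion-allele cells was 199.5, 500.2, 68.9, 343 and 101, and the count of called genes was the same in all 3 comparisons. The 9 genes were then lower by 1.43 to 4.84 than in microglia- and macrophage-gated cells.

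H2-T23 was the member farthest below microglia- and macrophage-gated cells, at 15.2, 11.1, 4.28, 15.5 and 8.05 CPM in fusion-allele cells (-4.36 ± 0.27). It passed the filter on low counts only with the microglia- and macrophage-gated cells, where it is high, so this difference is a description. Psmb8 stood at 22.8, 117, 11.4, 84.4 and 27.8, lower by 3.15 than in microglia- and macrophage-gated and by 1.87 than in endothelial-gated cells, and not called against astrocyte-gated cells (-0.16, 95% interval -0.81 to 0.49). Tapbp was closest to microglia- and macrophage-gated and to endothelial-gated cells, at 19.0, 100.5, 34.2, 100.6 and 37.9. It was lower by 1.22 than in microglia- and macrophage-gated cells (adjusted p = 0.00811) and did not pass against endothelial-gated (-0.80, adjusted p = 0.105) or astrocyte-gated cells (-0.45, adjusted p = 0.199). H2-D1 did not pass against astrocyte-gated cells either (-0.29, 95% interval -0.68 to 0.11).

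The calls against microglia- and macrophage-gated cells held at 8 to 10 genes under every alternative run. Against endothelial-gated cells 4 genes were called without tumor mouse 4, 5 without tumor mouse 1 or tumor mouse 5, and 2 without the filter on low counts. Against astrocyte-gated cells 0 genes were called without the mouse as a block and 1 without tumor mouse 5. Genes called in all ranged over the alternatives from 4276 to 7029, 2729 to 4643 and 1736 to 3871 in the same order.

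Counted cell by cell, each thinned to 2000 UMIs, a B2m UMI was found in 30.8, 58.6, 13.8, 47.6 and 18.9% of the fusion-allele cells of tumor mice 1 to 5, and in 91.6 to 98.0% of their microglia- and macrophage-gated cells. Neuron-gated cells of the same tumors, which should hold little B2m and were taken as a background, had one in 15.8, 20.0, 20.7 and 15.9% in tumor mice 1, 2, 3 and 5, while tumor mouse 4 had too few neuron-gated cells. The share in tumor mouse 3 lay below that of its neuron-gated cells, and that in tumor mouse 5 was 18.9 against 15.9%. Before thinning the fusion-allele shares were 50.0, 84.5, 30.9, 82.4 and 37.5%, with median depths of 3079 to 7028 UMIs, and the neuron shares 16.2, 33.8, 23.2 and 18.1% with 1583 to 2399.5. For H2-K1 the thinned shares were 23.1, 41.7, 7.5, 41.8 and 9.07% in fusion-allele cells and 7.38, 21.2, 4.88 and 3.03% in the neuron-gated cells. Free RNA was estimated at 18.4 to 29.3% of UMIs in these neuron-gated cells but at 5.05 to 17.8% in fusion-allele cells. The neuron-gated cells are therefore not a like background. With free RNA subtracted B2m in fusion-allele cells of tumor mouse 3 was still 68.9 CPM. Whether its share exceeds free RNA cannot be read from the neuron-gated cells. Thinning left out 0 to 14 fusion-allele cells per tumor and 447, 46, 159 and 28 neuron-gated cells.

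**Figure D5:**
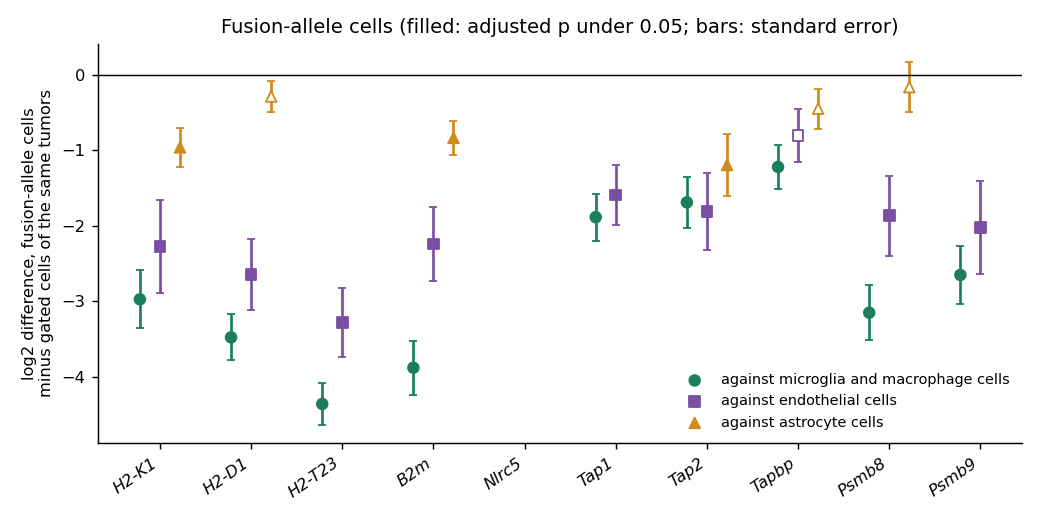
Log2 difference of each tested gene in fusion-allele cells against microglia- and macrophage-, endothelial- and astrocyte-gated cells of the same tumors, with bars of 1 standard error, a line at 0, and filled symbols where the adjusted p was under 0.05. All fitted differences lie below 0, from -4.36 (H2-T23 against microglia- and macrophage-gated cells) to -0.16 (Psmb8 against astrocyte-gated cells).

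Cycling fusion-allele cells, those with at least 3 of 8 cycling markers, were compared with non-cycling ones, which had no such marker. Cells between these limits were left out. Tumor mice 2, 4 and 5 had at least 20 cells of both. Cycling cells numbered 225, 760 and 405 with 2103631, 7703347 and 2710904 UMIs in mice 2, 4 and 5. Non-cycling cells numbered 345, 1798 and 285 with 2090624, 12355216 and 1191245 UMIs. Cycling cells were thus the deeper in each mouse, and the part of depth was not tested. Of 9 genes 4 were lower in cycling cells, where 28.9% of 11428 genes were called, 13.9% lower and 15.0% higher. H2-K1 stood at 242, 251 and 48.0 CPM in cycling and at 311, 413 and 64.7 in non-cycling cells of mice 2, 4 and 5, lower in all 3 (-0.45 ± 0.11, adjusted p = 0.00137). B2m stood at 394, 295 and 110.3 against 545, 431 and 125 (-0.35 ± 0.10, adjusted p = 0.00755). H2-T23 was lower by 0.77 and Tap2 by 0.56, while Psmb9 was 0.18 higher and did not pass. Without tumor mouse 4, which held most of these cells, 0 genes were called (B2m -0.29, adjusted p = 0.130), and without tumor mouse 2 the count was 2. Without the mouse as a block 0 genes were called. After subtraction of free RNA 4 genes were called lower, with H2-K1 at -0.54 and B2m at -0.42, where 10.4% of 10708 genes were called lower. Genes called in all ranged from 330 to 3765 over the alternatives.

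The immunoproteasome subunits replace constitutive ones, so the ratio of their UMIs was read within each class, with no test. In microglia- and macrophage-gated cells Psmb8 had 0.352, 0.462, 0.474 and 0.444 UMIs per UMI of its counterpart Psmb5 in control mice 1 to 4 and 1.89, 1.83, 1.92, 2.25 and 1.52 in tumor mice 1 to 5. The ratio was below 1 in every control and above 1 in every tumor. In fusion-allele cells the ratio was 0.0789, 0.483, 0.0482, 0.203 and 0.0940, below the microglia- and macrophage-gated cells of each tumor. Subtracting free RNA left 0 UMIs of Psmb5 in these cells of all 4 control mice, so no ratio could be formed there, and gave 2.50, 2.05, 2.03, 2.52 and 1.90 in the tumor mice.

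Psmb9 to its counterpart Psmb6 gave 0.194 to 0.277 in control and 0.25 to 0.606 in tumor microglia- and macrophage-gated cells, with overlap, and 0.0140 to 0.118 in fusion-allele cells. Psmb10 to Psmb7 gave 0.329 to 0.681, 0.866 to 1.77 and 0.239 to 0.776 in the same order. Psmb5 was itself 0.52 higher and Psmb7 0.39 higher on the log2 scale in fusion-allele than in microglia- and macrophage-gated cells, both called. In neuron-gated control cells Psmb8 had 0.0243 to 0.0419 UMIs per UMI of Psmb5.

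The wider pathway was read from lists of related genes, first in microglia- and macrophage-gated cells of tumors against controls, where 22.2% of all genes tested were called higher. Among other class I heavy chains all 8 tested rose, among them H2-Q7 (2.42), H2-Q4 (2.62) and H2-M3 (2.27), the last of which presents formylated peptides. Of 10 peptide loading and trimming genes 3 rose, Pdia3 (1.13), Hspa5 (1.04) and Bcap31 (0.99), and 7 were not called. Of 9 other proteasome genes 5 rose, with the activator subunits Psme1 (1.66) and Psme2 (1.99) and the third immunoproteasome subunit Psmb10 (1.37). Of 18 tested regulators 9 rose, with Irf1 at 1.93, and Nfyb fell by 0.89.

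Of 17 tested interferon-stimulated genes outside presentation 14 were called higher in these cells, among them Bst2 (3.72), Isg15 (3.44), Ifi27l2a (3.38) and Ifitm3 (2.48). The 14 include Cxcl10 and Rsad2, which passed the filter through the tumor mice, with 8 and 5 UMIs in the controls and 1434 and 316 in the tumors, so the count is a description. Of 7 tested interferon receptor genes and kinases 4 rose, both chains of both receptors, from 0.79 (Ifnar1) to 1.68 (Ifnar2). The ligands Ifng, Ifnb1, Ifnl2 and Ifnl3 did not pass the filter in any comparison. Of 12 genes listed as receptors of class I only Pirb (1.59) and Lilrb4a (3.33), inhibitory receptors of myeloid cells, were tested, and both rose. Whether Lilrb4a reads class I was not tested. These counts moved with free RNA, in a check added after the data were seen. After its subtraction 24% of 6937 genes were called higher, and so were 6 of 9 other heavy chains, 2 of 10 loading genes, 0 of 16 regulators, 5 of 16 interferon-stimulated genes, 2 of 7 receptor genes and kinases and 1 of 2 receptors of class I. Among the heavy chains H2-T24 was called lower (-1.48). The 5 interferon-stimulated genes were Isg15 (3.32), Bst2 (2.82), Ifi27l2a (2.66), Ifitm3 (1.75) and Cxcl10, the last from 5 control UMIs. The proteasome list is left out here, since subtraction left Psmb5 and Psmb6 at 0 UMIs in all 4 controls, Psmb7 in 3 and Psmb10 in 2.

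The same lists were read in endothelial-gated cells, where 11.4% of genes were called higher. Of 17 tested interferon-stimulated genes 1 rose (Bst2, 1.65), of 5 heavy chains 1 (H2-Q4, 2.25), of 9 loading genes 3, of 8 proteasome genes 1, of 13 regulators 1 and of 6 receptor genes and kinases 2, Ifngr1 (1.91) and Ifngr2 (1.56). After subtraction of free RNA, with 13.5% of genes called higher, the counts were 0 of 17, 0 of 5, 1 of 9, 2 of 7, 0 of 13 and 2 of 6 in the same order, Gbp7 was lower (-1.53), and Bst2 (1.16, adjusted p = 0.0867) and H2-Q4 (1.75, adjusted p = 0.0692) lost their calls. The interaction passed for 3 of 19 interferon-stimulated genes, all smaller in endothelial-gated cells, beside 1.11% of all genes, and for 1 of 19 (Isg15) beside 3.87% after the subtraction. In astrocyte-gated cells Bst2, Ifitm3 and the regulator Stat3 had 7, 15 and 14 UMIs in controls and 232, 525 and 117 in tumors, and 3, 0 and 6 against 205, 466 and 101 once free RNA was subtracted. They passed the filter through the tumor mice, so no call is read.

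In fusion-allele cells against microglia- and macrophage-gated cells 12 of 19 interferon-stimulated genes and 6 of 7 interferon receptor genes and kinases were lower, with Ifngr1 at -3.35, where 24.1% of all genes were called lower and 26.1% higher. Of 9 other heavy chains 6 were lower and Cd1d1, which presents lipids, was higher (1.43). Of 10 loading genes 8 were lower, among them Erap1 (-1.55), the peptide-trimming protease of the endoplasmic reticulum. Of 20 regulators 10 were lower, with Irf8 (-6.64) and Irf2 (-1.86), and 3 were higher: Ezh2 (1.73), the Polycomb methyltransferase, Socs1 (1.42), which dampens interferon signalling, and Nfyb (0.67). Socs1 lost its call when free RNA was subtracted (1.52, adjusted p = 0.0570). Against endothelial-gated cells 10 of 17 interferon-stimulated genes were lower, beside 20.9% of all genes, and against astrocyte-gated cells 5 of 8, beside 19.2%. After subtraction of free RNA the counts were 12 of 19, 7 of 16 and 1 of 4, beside 23.9, 20.2 and 18.4% of all genes called lower.

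Over all kept cells 19 of 20 interferon-stimulated genes, 9 of 12 other heavy chains, 6 of 10 loading genes, 7 of 9 proteasome genes, 13 of 21 regulators, 4 of 7 interferon receptor genes and kinases and 2 of 3 receptors of class I rose in tumors, where 32.1% of all genes were called higher. H2-T24 (-3.06) and Ciita (-1.71), the transactivator of class II genes, fell. In cycling fusion-allele cells, where 28.9% of genes were called, 0 of 19 interferon-stimulated genes were called by edgeR (2 of 19, Cxcl10 and Ly6e, at an unadjusted p under 0.05), and of 9 other heavy chains H2-Q4 (0.48) and H2-Q7 (0.61) were higher and 3 lower. H2-Q4 lost its call after subtraction of free RNA (0.48, adjusted p = 0.0706).

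The genes most like the mean of the 10 over 79 sums of 13 classes and 9 mice, among 7691 genes outside the lists and markers, were Ctsh (r = 0.88), Msn (0.85), Shisa5 (0.85), Cyba (0.84), Rap1b (0.83), Ifi35 (0.83), Dap (0.83) and Tram1 (0.82). Among themselves the 45 pairs of members had r from 0.33 to 0.94 (median 0.76). The sums share libraries, free RNA and depth, and these values are descriptions.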

How the data were processed

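Dissociated cells were passed over Percoll, stained with DAPI and anti-Ter119, sorted and loaded for 5′ libraries. The authors aligned the reads to mm10 with Cell Ranger (6.1.2 in the matrix headers, 7 in the submitters' processing notes, which also name Scanpy 1.8.2) and deposited whole UMI counts per gene and barcode, not normalized. No deposited column of values was left unused (0 columns).

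Per library the 10000 largest barcodes by UMI count entered, in tumor mouse 3 all 9001, and those with 200 to 6000 genes were kept. In that mouse the 3000 smallest barcodes, read as free RNA, were thus among those that entered. Mitochondrial share and gene number then split each library by a Gaussian mixture with 2 components (scikit-learn 1.9.0), and the one with the higher mean share was removed. Its mean share was 12.5 to 22.4% in 7 libraries but 3.68 and 4.84% in tumor mice 4 and 5, below that of the cells kept in controls (7.59 to 8.72%), so cells of low share were removed there. A limit of 10%, tried as an alternative, kept 9178 and 9139 cells of these mice in place of 5125 and 3644. It kept 4291 in place of 1722 in tumor mouse 3 and 1254 in place of 2366 in tumor mouse 1. Doublets were removed with Scrublet in Scanpy 1.11.5. Library totals were 101060608 to 178086164 UMIs in controls and 14967680 to 69411387 in tumors; kept cells held 13750570 to 21712066 and 5902794 to 37671311. A gate required at least 4 markers with a UMI, marker UMIs at least 3 times (neurons 2 times) those expected from free RNA, read from the 3000 smallest barcodes, and 2 times those of the next class. These limits were set after marker levels were seen. Intervals and floors (3 counts over the group sum) cover counting error only.

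Counts were summed per mouse and class with at least 20 cells and tested in edgeR 4.0.16 (R 4.3.3) by quasi-likelihood with TMM scaling, filterByExpr and Benjamini-Hochberg adjustment over all genes, called under 0.05. Comparisons within tumors and the interaction had the mouse as a block. Comparisons between groups share the same mice. Each library is 1 mouse. Alternatives were DESeq2 1.42.0, limma voom 3.58.1, no filter, other gates and cell limits, free RNA subtraction, library-size scaling and each mouse left out. Scripts were tested on simulated data. Genes named are the 10 members, members of 7 lists (other heavy chains, peptide loading and trimming, proteasome, regulators, interferon ligands and receptors, interferon-stimulated genes, receptors of class I) and the 8 genes most like the members' mean, by Pearson correlation of log2(CPM + 10) with a mean of at least 20. Members, lists and this rule were chosen with earlier results of these data known. The labels give no strain, so the H2 haplotype was not tested. A gene of the regulator list is not reported here.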

Additional observations from a re-analysis of the deposited data

Results flagged for a closer look

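In 9 of 89 groups of 4 or 5 mice 1 mouse stood far from the rest, by its gap to the nearest mouse over the range. The limits give about 1 in 20 for independent normal values. The groups share mice and genes, and any UMI in 1 mouse beside mice at 0 meets the rule, so no excess is read. In microglia- and macrophage-gated cells tumor mouse 4 was high for H2-D1 (2311 CPM, next 1390.5), Psmb8 (516, next 283) and Psmb9 (169, next 81.0), and tumor mouse 5 was low for Tapbp (59.5, next 104). In endothelial-gated cells control mouse 4 was the only control with Tap1 UMIs (14.6, the others 0). In astrocyte-gated cells tumor mouse 4 was high for H2-K1 (659, next 242) and Tap1 (29.9, next 12.8), control mouse 2 was high for Nlrc5 (9.71, the others 0), and Tap2 was 0 in control mouse 2 and at least 9.05 in the others.

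The tumor effect differed between endothelial-gated and microglia- and macrophage-gated cells, by the interaction test in edgeR, for H2-D1 (-1.59), H2-T23 (-1.85), B2m (-1.35) and Psmb8 (-1.95). With free RNA subtracted they were -1.17, -1.53, -0.94 and -1.64 and did not pass.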

How the results depend on the processing

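Of 1361 member values under alternatives 1251 kept their direction and their side of the threshold, 82 lost a call, 15 gained one and 13 changed direction. With free RNA subtracted and library-size scaling those were -0.40 (Tap1) and -0.67 (Tapbp) in microglia- and macrophage-gated cells, where 4 of 9 genes stayed called, -0.30 (Tapbp), -0.20 (Psmb8) and -0.36 (Psmb9) in endothelial-gated cells, and 0.36 (Tapbp) for the interaction. Subtraction alone put Psmb9 at -0.034 in endothelial-gated cells. Psmb8 against astrocyte-gated cells was 0.10 with no filter, 0.38 without the mouse block, 0.001 with any gate and -0.61 to 0.10 with a mouse left out (0.10 without tumor mouse 5). In cycling cells Tapbp was -0.21 to 0.053 with a mouse left out (0.053 without tumor mouse 4) and Psmb9 -0.16 at 2 UMIs of the added sequences. Tap1 and Tapbp in microglia- and macrophage-gated cells were the only 2 of these called as reported, and the causes were not tested. Over all kept cells all 10 genes were called in all 19 alternatives. Endothelial-gated calls (3 with Tap1) became 1 with limma voom, 7 with no filter, 1 with free RNA subtracted, 0 with library-size scaling as well and 1 to 4 with a mouse left out (1 without control mouse 3). Astrocyte-gated calls (4 with H2-K1, H2-D1 and Tapbp) became 7 with no filter. Against endothelial-gated cells 8 became 2 with no filter and 4 to 8 with a mouse left out. Against astrocyte-gated cells 3 became 0 without the mouse block and 1 to 3 with a mouse left out. The interaction's 4 became 0 without the mouse block, 0 with free RNA subtracted, 0 with library-size scaling as well and 1 to 6 with a mouse left out. Cycling calls (4) became 2 with DESeq2, 0 without the mouse block and 0 to 4 with a mouse left out.

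With a 10% mitochondrial limit the called members were 10 over all kept cells, 9 in microglia- and macrophage-gated and 3 in astrocyte-gated cells, 10, 8 and 3 for fusion-allele cells against microglia- and macrophage-, endothelial- and astrocyte-gated cells, and 4 for cycling. Genes called in all ranged over the alternatives from 2740 to 5686 in microglia- and macrophage-gated cells (4453 as reported), 919 to 2614 (1565) in endothelial- and 613 to 2408 (1454) in astrocyte-gated cells, 1736 to 3871 (2428) against astrocyte-gated cells, 167 to 597 (346) for the interaction and 330 to 3765 (3300) for cycling. Library-size scaling moved the median of all genes to -0.19 over all kept cells, -0.45 in microglia- and macrophage-gated cells and 0.50, 0.21 and 0.12 for fusion-allele cells against microglia- and macrophage-, endothelial- and astrocyte-gated cells.

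Replicate numbers are shared by both groups, but same-numbered mice did not deviate together (correlations -0.058 to 0.1003). With the number as a replicate block the counts were 10, 9, 4 and 4 for all kept, microglia- and macrophage-, endothelial- and astrocyte-gated cells, B2m gaining a call in endothelial-gated cells (0.95, adjusted p = 0.0369). Not run were the subtraction over all kept cells, where the free share could not be estimated, and, for endothelial-gated cells and the interaction, 50 cells per mouse or a 10% mitochondrial limit, which left too few control cells.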
